A study of Mus musculus with 12 samples.

Results

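Type I interferon response genes are followed here in whole-brain RNA of 5xFAD mice, as 32 named genes that were looked up by symbol in a table of read counts. They are interferon-stimulated genes, picked by name and not by a threshold on any value. All 32 were found among the 21643 rows of the table, and all 32 passed the filter on low counts that left 15061 genes for testing.

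5xFAD mice carry human amyloid precursor protein and presenilin transgenes with familial Alzheimer's disease mutations under a neuronal Thy1 promoter, and every mouse of the study was 5xFAD, the controls included. The 12 mice made 4 groups of 3: ShK-223, PAP-1, PBS and Control. ShK-223 is an analogue of a sea anemone peptide toxin, PAP-1 is a small molecule, and both block the voltage-gated potassium channel encoded by Kcna3, which is carried by activated microglia and T cells. PBS is phosphate-buffered saline, and the labels do not say how the Control mice differed from the PBS mice. Strain is labelled as not specified, and age, dose, route and duration are not stated. There was no mouse without the transgenes, so the data hold no level of these genes in a brain without amyloid.

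Cells that meet a virus, or misplaced nucleic acid of their own, release interferon alpha and beta. These bind the receptor made of Ifnar1 and Ifnar2, whose kinases Jak1 and Tyk2 phosphorylate Stat proteins, Stat2 among them. Activated Stat proteins join Irf9, and the complex binds the interferon-stimulated response element in the promoters of a large set of genes, many of them antiviral. In brains with amyloid a subset of microglia is known to express these genes, and endothelial cells, neurons and astrocytes can also do so.

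The interferon-stimulated response element was looked for in the promoters. RefSeq promoters of GRCm38.p6, each from 250 bases before to 50 after the start site, were on hand for 24 of the 32 genes. The core GAAANNGAAA, searched on both strands, was present in 14 of these 24 (58.3%), against 1079 of 27025 genes with a promoter entry (3.99%). With a further C (GAAANNGAAAC, both strands, a part of the same matches) it was present in 12 of 24, against 255 of 27025 (0.944%). A match is a description of the letters and not a measured binding site. The 8 windows that follow surround the matches upstream of the start site in genes that the results turn on, Stat2 included, whose levels ran apart from the rest. Capitals mark the shorter core, read on the strand of the gene, so that matches on the other strand appear as TTTCNNTTTC.
Isg15, chr4:156200853-156200918, minus strand: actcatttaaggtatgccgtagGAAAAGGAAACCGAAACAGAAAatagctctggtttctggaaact
Ifit1, chr19:34640763-34640835, plus strand: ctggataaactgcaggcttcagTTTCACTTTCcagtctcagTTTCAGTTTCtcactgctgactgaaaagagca
Ifit3, chr19:34583351-34583438, plus strand: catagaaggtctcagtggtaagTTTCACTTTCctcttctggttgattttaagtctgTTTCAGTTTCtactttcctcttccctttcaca
Ifit3b, chr19:34607747-34607834, plus strand: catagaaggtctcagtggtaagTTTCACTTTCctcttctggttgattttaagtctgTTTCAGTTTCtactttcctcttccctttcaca
Rsad2, chr12:26456541-26456594, minus strand: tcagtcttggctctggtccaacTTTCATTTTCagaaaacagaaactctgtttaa
Bst2, chr8:71537565-71537624, minus strand: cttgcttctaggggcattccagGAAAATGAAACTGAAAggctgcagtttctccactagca
Cxcl10, chr5:92349071-92349124, minus strand: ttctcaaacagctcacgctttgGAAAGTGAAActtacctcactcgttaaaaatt
Stat2, chr10:128270254-128270307, plus strand: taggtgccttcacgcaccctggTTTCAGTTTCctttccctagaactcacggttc

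Isg15 held 3 overlapping cores, at positions -78, -72 and -66 from the start site. Ifit1, Ifit3 and Ifit3b each held 2 on the reverse strand, and the printed windows of Ifit3 and Ifit3b were identical over 88 of 88 bases. Bst2 held 2 that overlap, and Rsad2, Cxcl10 and Stat2 held 1 each. Cmpk2, Dtx3l, Ifi44, Ifit2, Irf7, Irf9, Oasl2, Slfn2, Sp100 and Xaf1 had no match in this window. Ifi204, Ifi27l2a, Oas2, Parp14, Parp9, Rtp4, Usp18 and Zbp1 were not in the promoter table.

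Total counts ran between 14364013 and 19048551 per library, with 16662 to 17142 genes detected and RNA integrity numbers of 7.8 to 8.9. Levels are given in CPM, the deposited read counts brought to a common library total with TMM scaling factors. Batch labels B, C and CH cross the groups, but no batch held all 4. Some libraries stood apart in anatomy: a cerebellar index, the mean over 16 cerebellar genes of each library's level relative to the highest library, was 0.0371 to 0.0432 in ShK-223. It was 0.192, 0.0446 and 0.0402 in PAP-1 1, 2 and 3, 0.837 to 0.988 in the 3 PBS libraries, and 0.0450, 0.808 and 0.0451 in Control 1, 2 and 3. Blocker and PBS groups therefore differ in the share of cerebellar RNA, and in the comparisons with PBS the 2 cannot be told apart by group alone. Striatal genes also set ShK-223 1 apart. This library held 2.18 CPM of Adora2a, where ShK-223 2 and 3 held 72.8 and 32.7. For Drd2 these levels were 3.82, 60.1 and 28.0 CPM, and for Ppp1r1b 61.5, 291 and 160. Adora2a spanned 2.11 to 5.87 CPM among PAP-1 libraries, 0.984 to 13.4 among PBS and 1.34 to 104 among Control. The oligodendrocyte sum, given below, was likewise lowest of its group in ShK-223 1. Whether the striatal share bears on the interferon values was not tested. In such bulk RNA, fewer cells of a type and less transcript per cell cannot be told apart.

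Single mice, rather than groups, stood apart in the summed level of the interferon genes. The summed level of the 32 genes was 982, 276 and 254 CPM in ShK-223 1, 2 and 3, and 549, 261 and 231 CPM in PAP-1 1, 2 and 3. In PBS 1, 2 and 3 it was 326, 282 and 617 CPM, and in Control 1, 2 and 3 it was 438, 445 and 326 CPM. One mouse of each of ShK-223, PAP-1 and PBS was high and its mates were low, and the ranges of all 4 groups overlapped.

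**Figure D1:**
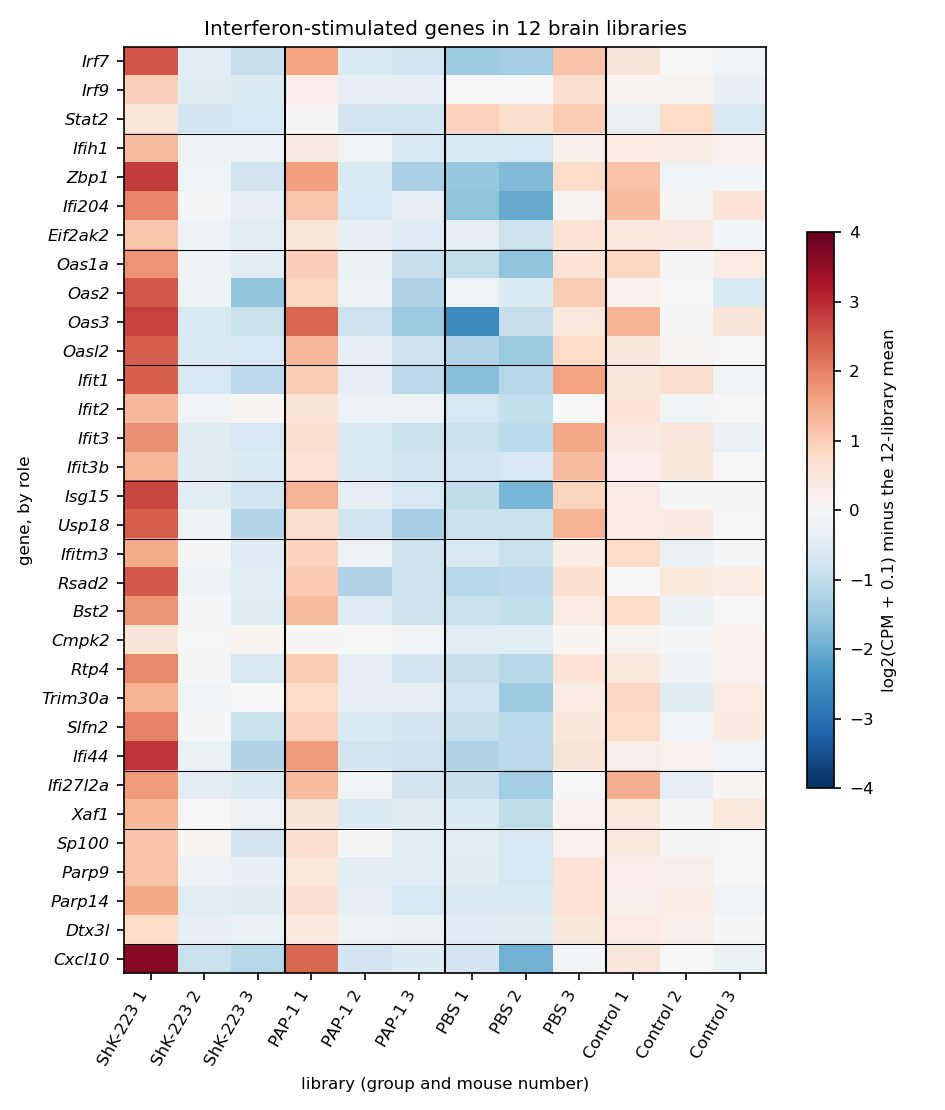
Each row is 1 of the 32 genes and each column 1 of the 12 libraries. The colour is log2(CPM + 0.1) minus that gene's mean over the 12 libraries, with red above and blue below, and thin lines separate the roles. The columns of ShK-223 1, PAP-1 1 and PBS 3 are red in nearly every row, while their group mates are pale to blue, and Stat2 departs by being red in all PBS libraries and in Control 2.

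ShK-223 1 was the highest of the 12 libraries for 31 of 32 genes, where it was the highest for 7.42% of all genes tested. The exception was Stat2, highest in PBS 3. Within their groups, ShK-223 1, PAP-1 1 and PBS 3 were each the highest for 32 of 32 genes, against 40.0%, 41.7% and 29.4% of all genes. In Control no mouse led alike: Control 1 was the highest for 23 genes, Control 2 for 8 and Control 3 for 1. These libraries were singled out after their values were seen, so the counts are a description and carry no test.

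ShK-223 1 was at a median of 4.56 times the mean of its 2 group mates over the 32 genes (range 1.38 to 27.7), and 31 genes were above 2 times. PAP-1 1 was at a median of 2.98 times its mates (1.07 to 16.1), with 23 genes above 2 times. PBS 3 was at a median of 2.65 times its mates (1.16 to 8.30), with 24 genes above 2 times. Over all tested genes those medians were 0.997, 1.00 and 0.988, and 5.26%, 6.59% and 1.91% of genes exceeded 2 times. For Control 1 the median was 1.32, with 3 genes above 2 times. The 3 high libraries carried 3 different batch labels (CH for ShK-223 1, B for PAP-1 1 and C for PBS 3), and their RNA integrity numbers were 8.0, 8.1 and 8.3.

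**Figure D2:**
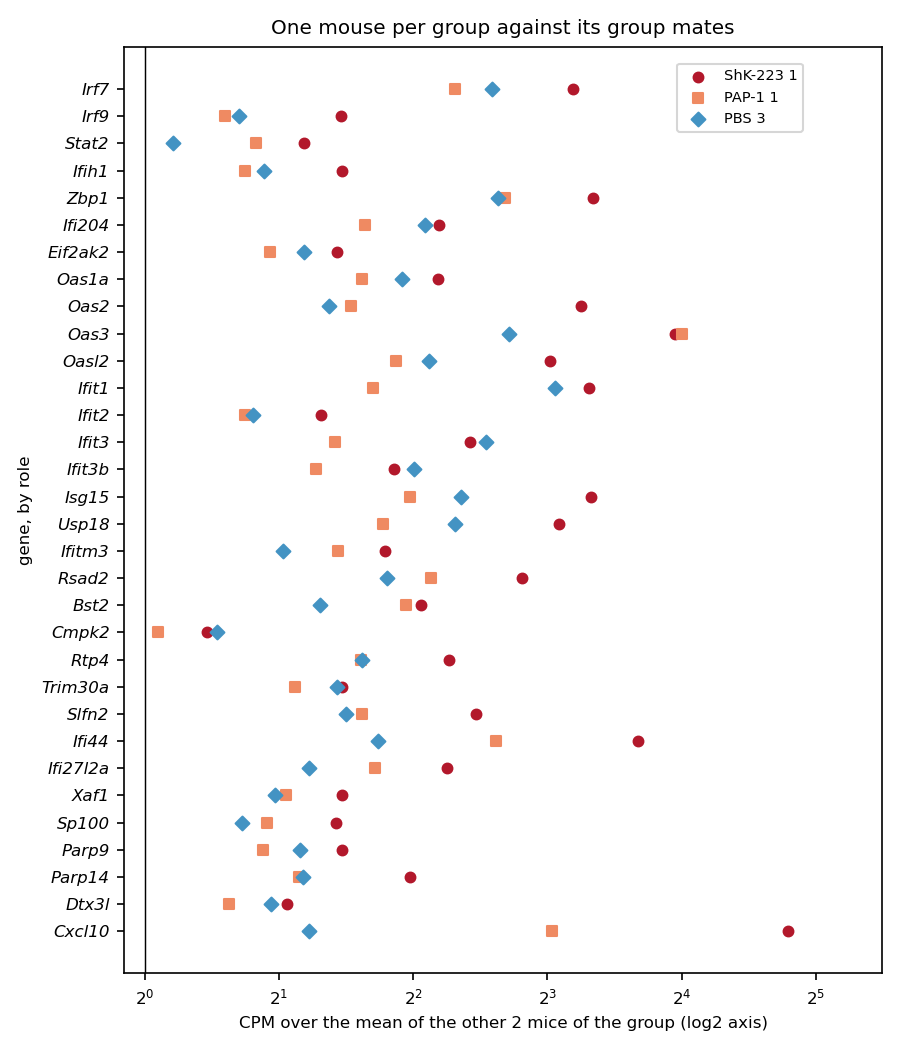
The horizontal axis, on a log2 scale, is the level of a gene in 1 library over the mean of the other 2 mice of its group, for ShK-223 1 (circles), PAP-1 1 (squares) and PBS 3 (diamonds). All 96 symbols lie right of the line at 1. Cxcl10 is farthest out at 27.7 in ShK-223 1. Nearest the line are Cmpk2 in ShK-223 1 and PAP-1 1 and Stat2 in PBS 3.

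The mice within a group therefore differed far more in these genes than in most others. The within-group standard deviation of log2(CPM + 0.1) had a median of 0.97 over the 32 genes, against 0.22 over all genes tested, and 4.11% of all genes exceeded the 0.97. Cmpk2, with 0.22, varied least among the 32 and Cxcl10, with 1.68, the most.

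Among the transcription factors, Irf7, which amplifies interferon production, followed the pattern of the sums. Irf7 was at 33.8, 4.31 and 3.11 CPM in ShK-223 1, 2 and 3, at 18.1, 3.94 and 3.34 CPM in PAP-1, at 2.14, 2.20 and 13.1 CPM in PBS and at 8.63, 5.81 and 5.43 CPM in Control. The 3 Control mice lay between the high and the low mice of the other groups. Irf9, the DNA-binding partner of the Stat proteins, ran from 17.6 to 49.7 CPM in ShK-223, 19.9 to 30.6 in PAP-1, 25.2 to 41.0 in PBS and 20.2 to 27.3 in Control.

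Stat2, the signal transducer specific to type I and III interferon, did not follow the sums. Stat2 was at 112, 48.5 and 50.3 CPM in ShK-223 1, 2 and 3, at 82.99, 46.9 and 46.4 CPM in PAP-1, at 152, 126 and 161 CPM in PBS and at 65.5, 140 and 51.3 CPM in Control. The 3 PBS libraries and Control 2 were the highest 4 of the 12, and these are the 4 libraries with a cerebellar index above 0.8. Within ShK-223 and PAP-1, mouse 1 was again the highest, and PAP-1 1 also had the highest cerebellar index of its group, 0.192. Per kilobase of exon, Stat2 averaged 24.6 CPM in PBS and 11.9, 9.91 and 14.4 CPM in ShK-223, PAP-1 and Control.

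Of the sensors, Zbp1, which detects nucleic acid in the Z conformation, showed the widest excess in ShK-223 1. It was at 10.3 CPM there against 1.23 and 0.804 CPM in ShK-223 2 and 3, at 4.60 CPM in PAP-1 1 against 0.914 and 0.518 CPM, and at 2.40 CPM in PBS 3 against 0.429 and 0.344 CPM. Its ratios to the group mates were 10.1, 6.42 and 6.20. Ifi204, a mouse DNA sensor of the Ifi200 family, ran from 1.71 to 8.90 CPM in ShK-223, 1.37 to 4.93 in PAP-1, 0.482 to 2.46 in PBS and 2.32 to 5.45 in Control. Its reads are uncertain, since 13.2% of its 75-base stretches also occur in relatives such as Ifi211, Mndal and Ifi207. Ifih1 (MDA5, a sensor of long double-stranded RNA) and Eif2ak2 (PKR, which halts translation) had smaller ratios in ShK-223 1, 2.77 and 2.69. Eif2ak2 was at 38.6, 15.2 and 13.5 CPM in ShK-223, 24.9, 13.5 and 12.5 CPM in PAP-1, 13.7, 9.92 and 26.9 CPM in PBS and 23.8, 23.0 and 16.5 CPM in Control.

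The Oas family makes oligoadenylates that activate RNase L, and its 4 genes lie on chromosome 5. Oasl2, the most abundant, was at 84.9, 10.8 and 10.1 CPM in ShK-223, at 39.8, 12.6 and 9.16 CPM in PAP-1, at 7.11, 5.85 and 28.2 CPM in PBS and at 22.3, 17.5 and 16.1 CPM in Control. The lowest of the 3 Control mice exceeded both group mates of each high mouse. Oas2 was at 15.6 CPM in ShK-223 1 against 2.41 and 0.857 CPM in its mates. Oas3 was the lowest of the 32, at 3.82 CPM in ShK-223 1 and 2.76 CPM in PAP-1 1, and 0 reads in PBS 1. Oas1a reached 8.25 CPM in ShK-223 1, but 47.6% of its 75-base stretches are shared with Oas1g, so its own level is uncertain.

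The Ifit proteins bind viral RNA that lacks host cap marks, and their genes form a cluster on chromosome 19 between Ifit2 (start 34550694) and Ifit1 (end 34650009). Ifit3 was at 99.9, 19.98 and 17.3 CPM in ShK-223, at 44.4, 18.2 and 14.9 CPM in PAP-1, at 14.9, 13.2 and 82.1 CPM in PBS and at 36.1, 38.8 and 23.3 CPM in Control. PBS 3 came close to ShK-223 1 for this gene. Ifit1 was at 46.5, 5.26 and 4.13 CPM in ShK-223, at 17.5, 6.63 and 4.15 CPM in PAP-1, at 2.63, 3.86 and 26.9 CPM in PBS and at 12.1, 14.3 and 7.95 CPM in Control. For both genes PBS 3 stood above PAP-1 1, and the ratios of PBS 3 to its mates were 5.84 for Ifit3 and 8.30 for Ifit1. Ifit3b ran from 10.0 to 36.6 CPM in ShK-223, 8.35 to 21.8 in PAP-1, 8.27 to 34.8 in PBS and 14.5 to 20.1 in Control. Ifit3 and Ifit3b share 41.1% and 35.7% of their 75-base stretches with each other, so how reads were divided between them is uncertain. Ifit2 varied less, from 14.7 to 39.8 CPM in ShK-223, 13.8 to 23.1 in PAP-1, 8.19 to 16.1 in PBS and 14.5 to 23.9 in Control.

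Isg15 encodes a ubiquitin-like protein that is attached to other proteins, and Usp18 encodes the protease that removes it and also damps the interferon receptor. Isg15 was at 23.9, 2.69 and 2.09 CPM in ShK-223, at 9.92, 2.80 and 2.25 CPM in PAP-1, at 1.78, 0.964 and 7.01 CPM in PBS and at 4.67, 3.60 and 3.53 CPM in Control. Usp18 was at 15.9, 2.52 and 1.23 CPM in ShK-223, at 4.80, 1.71 and 1.09 CPM in PAP-1, at 1.53, 1.52 and 7.56 CPM in PBS and at 3.70, 3.78 and 2.97 CPM in Control. The ratios of ShK-223 1 to its mates were 10.02 for Isg15 and 8.47 for Usp18, and both genes were high in the same 3 mice.

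**Figure D3:**
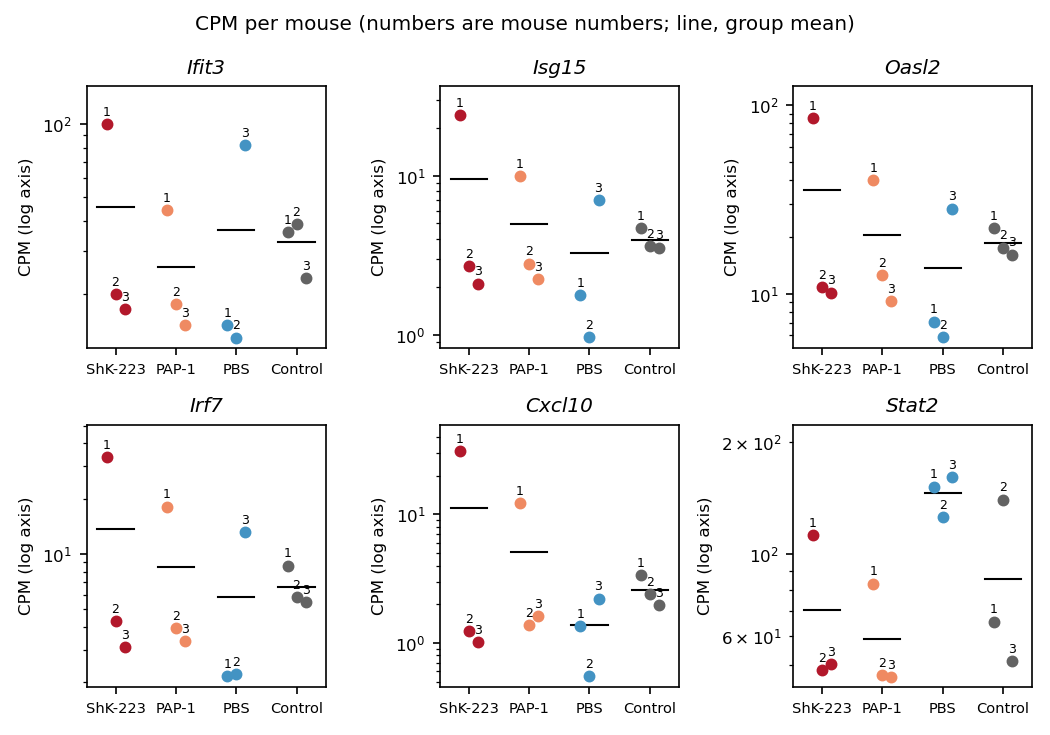
Each panel shows CPM on a log axis for 1 gene, with 1 point per mouse, the mouse number above it and a line at the group mean of 3. In Ifit3, Isg15, Oasl2, Irf7 and Cxcl10 the group means of ShK-223, PAP-1 and PBS fall in the gap between 1 high mouse and 2 low mice, less so for Cxcl10 in PBS. Stat2 is high in all PBS mice and in Control 2.

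The other antiviral effectors shared the pattern, with 1 exception. Rsad2 (viperin, which makes a chain-terminating nucleotide) was at 20.04, 3.08 and 2.63 CPM in ShK-223, at 7.43, 1.49 and 1.90 CPM in PAP-1, at 1.59, 1.65 and 5.66 CPM in PBS and at 3.50, 4.65 and 4.37 CPM in Control. Bst2 (tetherin, which holds budding virus at the membrane) was at 30.1, 8.23 and 6.21 CPM in ShK-223, at 21.0, 6.06 and 4.84 CPM in PAP-1, at 4.66, 4.34 and 11.1 CPM in PBS and at 14.7, 7.32 and 8.91 CPM in Control. Ifi44 showed the highest ratio of this group in ShK-223 1, 12.8, at 15.1 CPM against 1.57 and 0.804 CPM in its mates. Ifitm3, which blocks fusion of viral and endosomal membranes, reached 33.2 CPM in ShK-223 1 against 11.1 and 8.09 CPM in its mates. Trim30a, Slfn2 and Rtp4 were at 21.8, 12.0 and 17.7 CPM in ShK-223 1, with ratios to the mates of 2.77, 5.52 and 4.82, and 10.5% of the stretches of Rtp4 are shared with the overlapping Gm45338.

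The exception was Cmpk2, a mitochondrial nucleotide kinase that lies next to Rsad2 on chromosome 12 (26469204 to 26479837, plus strand; Rsad2 26442746 to 26456452, minus strand). Cmpk2 was at 36.1, 25.5 and 26.9 CPM in ShK-223, at 26.0, 25.5 and 23.1 CPM in PAP-1, at 18.6, 18.3 and 26.8 CPM in PBS and at 27.6, 24.3 and 28.7 CPM in Control. Its ratios to the group mates were 1.38, 1.07 and 1.45, where those of Rsad2 were 7.03, 4.39 and 3.49.

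Ifi27l2a, a small membrane protein linked to mitochondria, was at 8.90 CPM in ShK-223 1, 6.51 CPM in PAP-1 1, 2.71 CPM in PBS 3 and 7.52 CPM in Control 1. Control 1 was thus above PAP-1 1 and PBS 3 for this gene, against 2.03 and 2.91 CPM in Control 2 and 3. Xaf1, which opposes the apoptosis inhibitor XIAP, ran from 8.36 to 24.96 CPM in ShK-223, 6.57 to 14.1 in PAP-1, 4.82 to 11.1 in PBS and 10.1 to 13.3 in Control. Sp100, a nuclear body protein, Parp9 and Parp14, which carry ADP-ribosyltransferase domains, and Dtx3l, the ubiquitin ligase partner of Parp9, had modest ratios in ShK-223 1, from 2.08 to 3.93. Parp14 was at 26.6, 6.94 and 6.59 CPM in ShK-223, at 14.2, 7.14 and 5.64 CPM in PAP-1, at 6.13, 6.27 and 14.02 CPM in PBS and at 11.0, 11.5 and 8.40 CPM in Control. Parp9 and Dtx3l overlap on opposite strands, and no source used here says whether the counting used strand.

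Cxcl10, the chemokine that draws T cells carrying Cxcr3, had the widest excess of the 32. It was at 31.2, 1.23 and 1.02 CPM in ShK-223, at 12.2, 1.37 and 1.61 CPM in PAP-1, at 1.35, 0.551 and 2.21 CPM in PBS and at 3.37, 2.38 and 1.96 CPM in Control. The ratios to the mates were 27.7 in ShK-223 1 and 8.19 in PAP-1 1, but 2.33 in PBS 3, whose level lay within the range of the 3 Control mice. In PBS 3 the ratio of Cxcl10 was therefore below those of Ifit1 and Ifit3, while in ShK-223 1 it was above both. Cxcl10 lies inside the span of Art3 on the other strand.

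The level of the set per length was led by a few genes. Per kilobase of exon and averaged over the 12 libraries, Ifit3 was at 20.2 CPM, Ifitm3 at 19.8, Stat2 at 15.2 and Bst2 at 11.8, and Oas3, at 0.129, was the lowest.

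The group comparisons were made with edgeR's quasi-likelihood test and Benjamini-Hochberg adjustment over all 15061 genes, at an adjusted p of 0.05, with n = 3 mice per group. Each mouse gave 1 library, so the spread is between mice. The comparisons with PBS share the PBS mice and those with Control share the Control mice. With the cerebellar index in the model 0 of the 15061 genes were called in either blocker against PBS, so every call named in those 2 comparisons was lost there.

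ShK-223 against PBS called 0 of the 32 genes, where 18.8% of all genes were called higher and 20.3% lower. At an unadjusted p under 0.05, 4 were higher and 1 was lower, and DESeq2 called 3 higher (Cmpk2, Ifit2 and Ifi204) and 1 lower (Stat2), giving no adjusted p for 6 (Cxcl10, Irf7, Isg15, Oasl2, Rsad2 and Zbp1). The fitted log2 fold changes were positive for 30 of 32, with a median of 0.99 (range -1.05 to 3.01) where the median of all genes was -0.01. That median rests on ShK-223 1: without it the median was -0.17, and without PBS 3 it was 1.71. Within batch CH, which leaves ShK-223 1 and 3 against PBS 2, the median was 2.18 with 31 genes higher, and the low ShK-223 2 is not in that batch.

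Among the most abundant gene of each role, none passed. Cmpk2 came nearest, averaging 29.5 ± 5.77 CPM in ShK-223 and 21.2 ± 4.83 CPM in PBS (SD, n = 3 each), a log2 fold change of 0.47 (SE 0.17, edgeR adjusted p = 0.0503), with overlapping mice. Cxcl10 averaged 11.1 ± 17.4 CPM in ShK-223 and 1.37 ± 0.832 CPM in PBS, a log2 fold change of 3.01 (SE 1.33, edgeR adjusted p = 0.0928) that became -0.27 without ShK-223 1. Ifit3 averaged 45.7 ± 46.9 CPM in ShK-223 and 36.7 ± 39.3 CPM in PBS (0.31, SE 0.82, edgeR adjusted p = 0.782). Isg15 averaged 9.56 ± 12.4 CPM in ShK-223 and 3.25 ± 3.28 CPM in PBS (1.55, SE 1.00, edgeR adjusted p = 0.233), and Oasl2 35.3 ± 43.0 CPM in ShK-223 and 13.7 ± 12.5 CPM in PBS (1.36, SE 0.91, edgeR adjusted p = 0.248). In both groups the standard deviation was about as large as the mean. Xaf1, Eif2ak2 and Parp14 gave log2 fold changes of 0.94, 0.41 and 0.60, with edgeR adjusted p-values of 0.128, 0.505 and 0.415.

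For Stat2, all 3 ShK-223 mice were below all 3 PBS mice. It averaged 70.4 ± 36.4 CPM in ShK-223 and 146 ± 18.3 CPM in PBS (SD, n = 3 each), a log2 fold change of -1.05 (SE 0.42, edgeR adjusted p = 0.0705). With the cerebellar index in the model this fold change became 0.43.

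**Figure D4:**
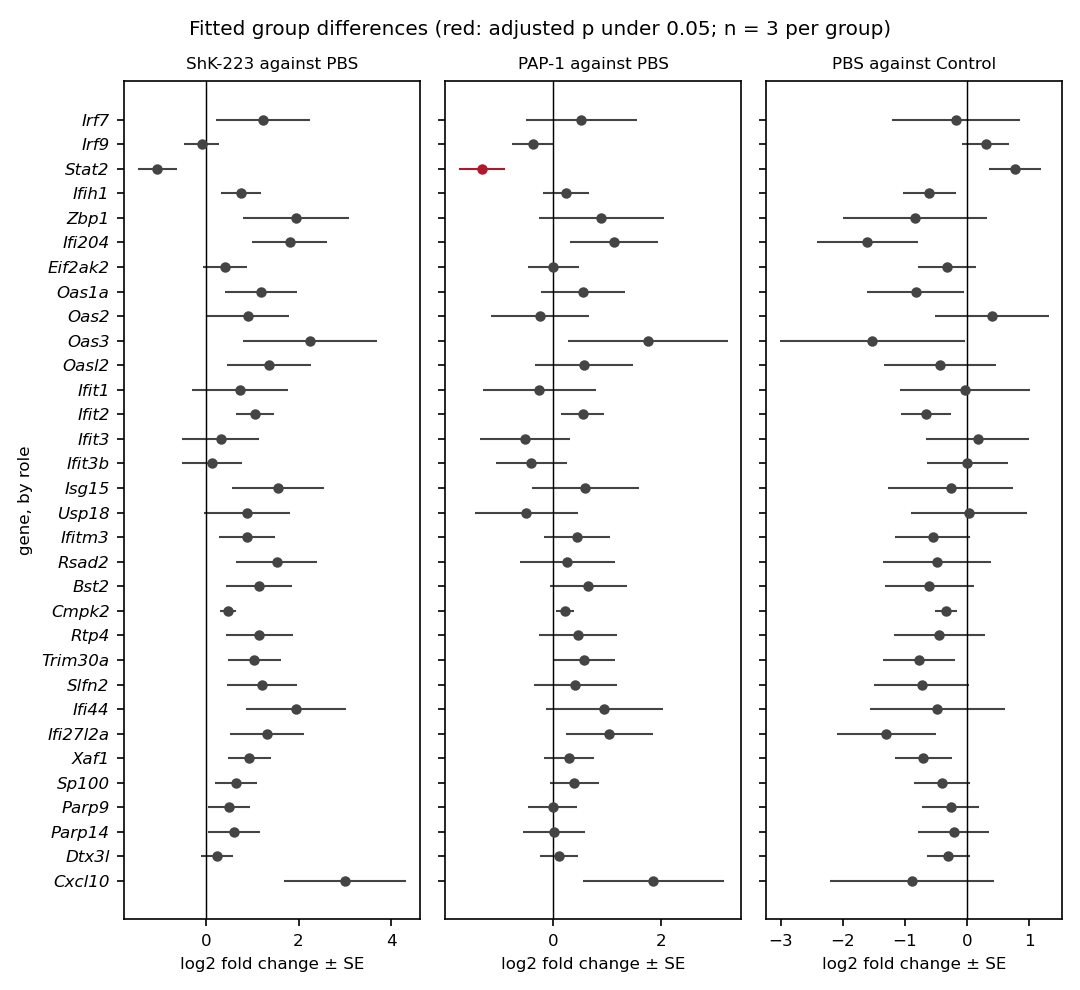
Fitted log2 fold change ± SE of each gene (n = 3 mice per group) for ShK-223 against PBS, PAP-1 against PBS and PBS against Control, with red for an adjusted p under 0.05. Most points of ShK-223 against PBS lie right of 0 with wide bars, and the single red point is Stat2 in PAP-1 against PBS, at -1.31.

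PAP-1 against PBS called 1 of 32 genes, Stat2, as lower and 0 as higher, where 21.1% of all genes were called higher and 22.6% lower. Stat2 averaged 58.8 ± 21.0 CPM in PAP-1 and 146 ± 18.3 CPM in PBS (SD, n = 3 each), a log2 fold change of -1.31 (SE 0.43, edgeR adjusted p = 0.0307), and all 3 PAP-1 mice were below all 3 PBS mice. The call was lost with batch as a term (edgeR adjusted p = 0.179) and without any 1 of PAP-1 2, PAP-1 3, PBS 1, PBS 2 or PBS 3 (edgeR adjusted p between 0.0556 and 0.0971). With the cerebellar index in the model the fold change was 0.05 (edgeR adjusted p = 0.988). DESeq2 likewise called Stat2 alone, and at an unadjusted p under 0.05 in edgeR no gene was higher. In this and every other comparison DESeq2 gave no adjusted p for 6 of the 32, so its counts of calls leave those 6 out.

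In PAP-1 against PBS the median log2 fold change of the 32 was 0.41, with 24 positive (range -1.31 to 1.86), against -0.01 over all genes. Without PAP-1 1 the median was -0.35, and without PBS 3 it was 0.99. Ifit3 averaged 25.8 ± 16.1 CPM in PAP-1 and 36.7 ± 39.3 CPM in PBS (-0.51, SE 0.83, edgeR adjusted p = 0.639), and Cxcl10 5.07 ± 6.20 CPM in PAP-1 and 1.37 ± 0.832 CPM in PBS (1.86, SE 1.31, edgeR adjusted p = 0.266). Isg15, Oasl2, Xaf1, Eif2ak2, Parp14 and Cmpk2 gave log2 fold changes between 0.01 and 0.60 and edgeR adjusted p-values between 0.301 and 0.992. Within batch C, PAP-1 2 against PBS 1 and 3, the median was -0.48, with 5 genes higher and 27 lower. That batch holds the high PBS 3 but not PAP-1 1.

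The 2 blockers were not told apart by these genes. ShK-223 against PAP-1 called 0 of 32 genes and 0% of all genes higher and 0% lower. By edgeR the smallest adjusted p among the 32 was 0.984, 0 genes passed an unadjusted p under 0.05, and DESeq2 called 0. All 32 fitted log2 fold changes were positive, with a median of 0.60 (range 0.12 to 1.38), and without ShK-223 1 the median was -0.44. Within batch B, ShK-223 2 against PAP-1 1 and 3, the median was -0.49, with 1 gene higher and 31 lower. That batch holds the high PAP-1 1 but not ShK-223 1.

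PBS against Control called 0 of 32 genes, where 0.412% of all genes were called higher and 4.61% lower. None passed an unadjusted p under 0.05 and DESeq2 called 0. The median log2 fold change was -0.44, with 6 genes positive, and without PBS 3 it was -1.20. Stat2 averaged 146 ± 18.3 CPM in PBS and 85.6 ± 47.6 CPM in Control (0.77, SE 0.42, edgeR adjusted p = 0.213). Without Control 2, the Control library with cerebellar transcript, its fold change was 1.33 with an edgeR adjusted p of 0.0203, and with the cerebellar index in the model it was -0.14. Within batch C, where PBS 1 and 3 and Control 2 all held cerebellar transcript, the Stat2 difference was 0.16 and the median of the 32 was 0.03, with 17 higher and 15 lower. Within batch CH, PBS 2 against Control 3, these were 1.29 and -1.01, with 3 higher and 29 lower.

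ShK-223 against Control called 0 of 32 genes, with 0% of all genes called higher and 0% lower. PAP-1 against Control also called 0 of 32, with 0% higher and 0% lower. In both, 0 of the 32 passed an unadjusted p under 0.05 in edgeR and DESeq2 called 0. The median log2 fold change was 0.39 with 30 positive for ShK-223, which became -0.67 without ShK-223 1, and -0.19 with 10 positive for PAP-1, which became -0.81 without PAP-1 1. For ShK-223 the batches gave opposite directions, and batch cannot be told apart there from single mice. In batch CH, the high ShK-223 1 with ShK-223 3 against Control 3, 32 genes were higher with a median of 0.86. In batch B, the low ShK-223 2 against Control 1, 32 were lower with a median of -0.74. For PAP-1 the medians were -0.21 in batch B and -0.46 in batch C.

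The rest of the pathway was examined from lists of its ligands, receptors, sensors, brakes and further targets. Ligand transcripts were all but undetected. Of 18 type I interferon genes 10 had no read in any library, and the summed counts of all 18 were 4, 2 and 1 in ShK-223 1, 2 and 3, 0, 2 and 1 in PAP-1, 1, 1 and 5 in PBS and 1, 0 and 0 in Control. Ifnb1 had 2 reads in ShK-223 1 and 0 in the other 11 libraries. Ifng, Ifnl2 and Ifnl3 had 0 reads in all 12 libraries, which allows up to 0.161 to 0.207 CPM per library (3 counts, counting error only).

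Of the receptors and kinases, Ifnar1 was between 50.2 and 58.3 CPM in all 12, Jak1 between 177 and 213 CPM and Tyk2 between 28.2 and 40.2 CPM, while the interferon gamma receptor chain Ifngr1 ran from 15.9 CPM in PBS 2 to 27.1 CPM in Control 1. Of 10 tested genes of this list, excluding Stat2 and Irf9, 1 was higher and 0 were lower in ShK-223 against PBS, below the 18.8% and 20.3% of all genes. It was Ifngr2, the other chain of that receptor, at 0.41 (SE 0.11, edgeR adjusted p = 0.0144), and Ifngr2 was also the only one called with PAP-1, at 0.42 (SE 0.11, edgeR adjusted p = 0.0114).

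Of 17 tested genes of nucleic acid sensing, 2 were higher and 1 was lower in ShK-223 against PBS, and 3 were higher and 2 lower with PAP-1, where the shares of all genes were 18.8% and 20.3%, and 21.1% and 22.6%. None of these 4 shares exceeded that of all genes. Irf3, the factor that starts interferon transcription, was lower with both, at -0.85 (SE 0.18, edgeR adjusted p = 0.00827) with ShK-223 and -1.18 (SE 0.18, edgeR adjusted p = 0.00249) with PAP-1. Like Stat2, Irf3 was highest in the 4 libraries with a cerebellar index above 0.8. It was at 38.6 to 41.4 CPM in PBS and 36.2 CPM in Control 2, against 21.0 and 22.4 CPM in the other Control mice. Aim2, a DNA sensor of the inflammasome, and Unc93b1, the chaperone of endosomal Toll-like receptors, were higher with both blockers (1.08 and 1.19 with ShK-223, 1.09 and 1.17 with PAP-1). Both were also low in Control 2, which held cerebellar transcript: Aim2 was at 1.86 to 2.51 CPM in PBS and 6.49, 2.27 and 5.60 CPM in Control 1, 2 and 3, and Unc93b1 at 8.75 to 15.99 CPM in PBS and 49.4, 13.9 and 31.1 CPM in Control. Rigi, the cytosolic RNA sensor RIG-I and a known interferon target, was at 31.2, 12.1 and 8.41 CPM in ShK-223, 16.6, 8.46 and 7.26 CPM in PAP-1, 6.55, 5.78 and 23.4 CPM in PBS and 14.1, 15.5 and 10.3 CPM in Control, again with 1 high mouse in each of the first 3 groups.

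Of 9 tested regulators that restrain the pathway, 3 were higher and 2 lower in ShK-223 against PBS, and 1 was higher and 2 were lower with PAP-1, beside the same shares of all genes. Socs3, an inhibitor of cytokine receptors, rose with ShK-223 by 1.97 on the log2 scale (SE 0.63, edgeR adjusted p = 0.0314), and was at 20.2, 6.21 and 5.63 CPM in ShK-223 against 3.25, 1.86 and 3.01 CPM in PBS. All 3 ShK-223 mice were above all 3 PBS mice. Socs3 was at 2.85 CPM in Control 2 and 7.65 and 5.55 CPM in Control 1 and 3. It was thus lowest in the 4 libraries with a cerebellar index above 0.8. PAP-1 1, with an index of 0.192, was not low for it.

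Among 53 further interferon-stimulated genes outside the set, ShK-223 1 was the highest of the 12 libraries for 39, against 7.42% of all genes. Their median ratios to the group mates were 2.698 in ShK-223 1, 1.80 in PAP-1 1 and 1.61 in PBS 3. Mx1, an antiviral GTPase, was at 14.4 CPM in ShK-223 1 against 1.06 and 1.18 CPM in its mates. Iigp1, a GTPase of the interferon-induced family that attacks parasite vacuoles, was at 24.2 CPM against 2.91 and 2.25 CPM. Rnf213, a large ubiquitin ligase, was at 115 CPM against 31.7 and 24.1 CPM. With ShK-223 against PBS, 6 of the 53 were higher and 0 lower, led by Ly6e, Shisa5, Herc6 and Znfx1, and with PAP-1 4 were higher and 3 lower, led by Ly6e, Shisa5 and Herc6 (higher) and Pml (lower, -0.56). Set beside the 18.8% and 21.1% of all genes called higher, these shares are no larger. Ly6e, a membrane protein that blocks coronavirus fusion, was at 204, 212 and 218 CPM in ShK-223 and 149, 190 and 180 CPM in PAP-1. In PBS it was at 103, 71.8 and 90.0 CPM and in Control at 195, 105 and 189 CPM. ShK-223 1 was thus not high for Ly6e, and the 4 libraries with a cerebellar index above 0.8 were the lowest.

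Markers of other cells were set beside the interferon genes in the 3 high mice. The 16 microglial markers summed to 1171, 1054 and 1163 CPM in ShK-223 1, 2 and 3, and none of the 16 was above 2 times its mates in ShK-223 1. In PAP-1 they summed to 1256, 896 and 923 CPM, in PBS to 615, 301 and 441 CPM and in Control to 1793, 439 and 1213 CPM. Control 1 was the highest library for all 16, against 8.72% of all genes, and held 438 CPM of the interferon genes. PBS 3, with 617 CPM of interferon genes, had a lower microglial sum than PBS 1, with 326 CPM of interferon genes. The part of microglial number in the interferon values was not tested.

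**Figure D5:**
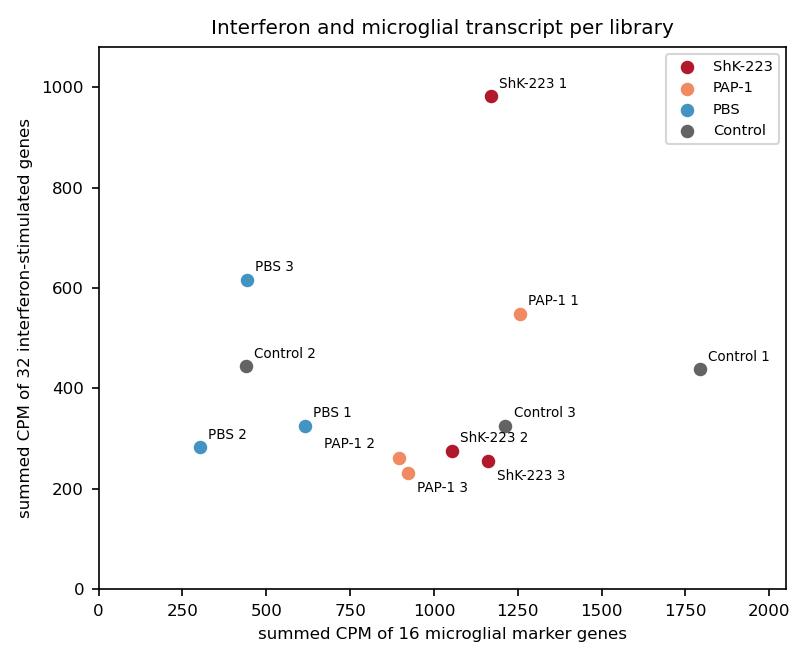
Each point is 1 library, with the summed CPM of 16 microglial markers on the horizontal axis and the summed CPM of the 32 interferon-stimulated genes on the vertical axis, coloured by group. The interferon sums include Stat2, which was highest in the PBS libraries and Control 2. ShK-223 1 lies at 982 CPM of interferon genes with a microglial sum near those of its mates, and Control 1, with the highest microglial sum of 1793 CPM, lies at 438 CPM.

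Microglial markers were called in the comparisons with PBS. With ShK-223 against PBS 14 of 16 were higher and 0 lower (median 1.36), and with PAP-1 10 of 16 were higher and 0 lower (median 1.27), where 18.8% and 21.1% of all genes were called higher, and beside the difference in cerebellar index. Oligodendrocyte markers (8 genes) summed to 3018, 5978 and 5370 CPM in ShK-223 1, 2 and 3 and 1858, 3677 and 2094 CPM in PAP-1. In PBS they summed to 3873, 6578 and 7264 CPM. Endothelial markers (12 genes) summed to 360, 309 and 279 CPM in ShK-223 1, 2 and 3, 372, 274 and 307 CPM in PAP-1, 345, 291 and 296 CPM in PBS and 314, 288 and 312 CPM in Control. Above the mean of the mates were 9 of these 12 in ShK-223 1, 9 in PAP-1 1 and 5 in PBS 3. Over all tested genes the median ratio to that mean was 0.997, 1.00 and 0.988 in these libraries. ShK-223 1 was the highest of the 12 libraries for 7 of the 12 endothelial markers, against 7.42% of all genes. Meningeal and fibroblast markers (8 genes) summed to 164, 59.1 and 45.6 CPM in ShK-223, 127, 83.7 and 107 CPM in PAP-1, 78.4, 105 and 121 CPM in PBS and 49.2, 136 and 57.1 CPM in Control. They were therefore highest in ShK-223 1, where 8 of 8 were above the mates. They were also the highest of their group in PAP-1 1, with 6 of 8 above the mates, and in PBS 3, with 8 of 8. The part of endothelial, meningeal and oligodendrocyte cells in the interferon values was not tested. Choroid plexus markers (8 genes) summed to 37.4, 1339 and 399 CPM in ShK-223 and to 539, 16.3 and 82.3 CPM in PAP-1, and to 45.8, 591 and 1281 CPM in PBS, so they were low in ShK-223 1 and the highest of their group in PAP-1 1 and PBS 3. Astrocyte markers (8 genes) summed to 6200, 6015 and 5575 CPM in ShK-223 and 6858, 5083 and 5568 CPM in PAP-1. In PBS they summed to 5567, 4908 and 5728 CPM. Of these 8, 3 were above the mates in ShK-223 1, 6 in PAP-1 1 and 6 in PBS 3. Gfap was at 1.90, 2.12 and 1.52 times its mates there, and Slc1a2 at 0.779, 0.988 and 0.779 times. The part of astrocytes in the interferon values was not tested.

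Of 11 genes of T and NK cells, 9 were too low to be tested, and the T-cell receptor genes Cd3e, Cd3d and Cd3g reached at most 0.601, 0.329 and 0.437 CPM in any library. Lck, a T-cell kinase, was the 1 gene of the list called with ShK-223 against PBS (1.79, edgeR adjusted p = 0.0165) and with PAP-1 (1.85, edgeR adjusted p = 0.0131), at 0.275 to 2.46 CPM over the 12 libraries. Lck was at 0.674, 0.275 and 0.553 CPM in PBS and 1.95, 0.697 and 2.24 CPM in Control. It was thus lowest in the 4 libraries with a cerebellar index above 0.8. Cd4, a T-cell coreceptor, was at 0.71, 19.3 and 11.4 CPM in ShK-223, 0.92, 0.80 and 1.27 CPM in PAP-1, 2.57, 0.275 and 0.615 CPM in PBS and 29.6, 0.581 and 23.7 CPM in Control. It was low in the 3 mice high in interferon genes, and also in their PAP-1 and PBS mates and in Control 2. Cd4 was highest in ShK-223 2 and 3 and Control 1 and 3, the libraries that were also highest in the striatal gene Adora2a. The 10 neutrophil and monocyte markers summed to 4.48 CPM in ShK-223 1 against 0.616 and 0.643 CPM in its mates, 1.64, 0.972 and 0.979 CPM in PAP-1, 1.23, 1.31 and 3.32 CPM in PBS and 0.908, 1.86 and 1.01 CPM in Control, so in each of ShK-223, PAP-1 and PBS the mouse high in interferon genes had the highest sum of its group. Of these 10 genes 0 passed the filter on low counts. The sums rest on 82, 11 and 12 reads in ShK-223, 25, 17 and 17 in PAP-1 and 20, 19 and 54 in PBS. The PAP-1 difference is therefore a matter of few reads. Plac8, which is also induced by interferon, gave 1.86 CPM of the sum in ShK-223 1, and Ly6g was at 0 there. Of plasmacytoid dendritic and B cell markers outside the 32, Siglech, also a microglial gene, was at 29.7, 27.5 and 32.6 CPM in ShK-223, and Cox6a2 at 5.90, 5.60 and 7.50 CPM. Ly6d, Cd300c, Cd79a, Cd79b and Ms4a1 were each under 1 CPM in every library. Red cell genes (6) summed to 14.5, 7.78 and 8.52 CPM in ShK-223, 4.27, 3.32 and 2.48 CPM in PAP-1, 6.19, 8.33 and 3.57 CPM in PBS and 3.31, 7.38 and 7.62 CPM in Control. The part of these cells in the interferon values was not tested.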

How the data were processed

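Total RNA of whole brain from 12 mice was sequenced, and the authors deposited raw read counts per gene symbol for each library. The submitters' processing notes name STAR 2.7.11a, the build GRCm38 (mm10), R 4.3.2 and DESeq2 1.40.2, while the counting tool, strand setting and annotation are not given there. Of 21643 rows, 22 repeated a gene symbol and 2893 had 0 counts throughout. Libraries were grouped by the treatment in the labels, replicates numbered in sample order.

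The counts were fitted over all 12 libraries with edgeR 4.0.16 in R 4.3.3 (quasi-likelihood test, TMM, filterByExpr), with group as the only term and Benjamini-Hochberg adjustment over 15061 genes. CPM used the same TMM factors, so a few very abundant transcripts move all other values less than they would in plain CPM. The fit was tested on simulated data. No pair of libraries agreed within sampling noise (mean chi-square per gene of at least 7.34). Gene positions and 75-base sharing came from GENCODE M21 on GRCm38, promoters from RefSeq. Alternatives were RLE scaling, DESeq2 1.42.0, no filter, batch or cerebellar index as a term, the compared groups alone, an adjusted p of 0.1, leaving out Control 2 with PAP-1 1, and leaving out each library. All 32 genes are named, and tests are printed for those called and for the most abundant gene of each of 9 roles. The genes, lists, cerebellar index and alternatives were chosen with earlier results of these data known.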

Additional observations from a re-analysis of the deposited data

How the results depend on the processing

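Of the 32 genes, the number called in ShK-223 against PBS was 0 as reported. It was 5 at an adjusted p of 0.1, 1 with RLE scaling (Cmpk2), 1 with the compared groups alone (Stat2), 3 without Control 2 and PAP-1 1 (Cmpk2, Stat2 and Ifit2) and 4 with DESeq2, and leaving out 1 library gave 0 to 2. In PAP-1 against PBS the 1 call became 0 with batch and 0 with the cerebellar index in the model, and leaving out 1 library gave 0 to 1. In PBS against Control the 0 became 1 (Stat2) without Control 2 and PAP-1 1, and leaving out 1 library gave 0 to 1. The other 3 comparisons gave 0 under every alternative run. Counts over all genes moved too: with batch as a term 4 genes in all were called in ShK-223 against PBS, where 5896 were called without it, and 2752 in PAP-1 against PBS and 2 in PBS against Control, where 6589 and 756 were called without it. With the cerebellar index as a term 0 of 15061 genes were called in ShK-223 or PAP-1 against PBS, so the 0 among the 32 there comes from a model that called no gene at all.

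Stat2 changed sign with the cerebellar index in the model, to log2 fold changes of 0.43 in ShK-223 against PBS, 0.049 in PAP-1 against PBS, -0.14 in PBS against Control and 0.29 in ShK-223 against Control. Without Control 2 and PAP-1 1 it was 0.27 in ShK-223 against Control. Apart from leaving out 1 library, the other signs that turned were in PAP-1 against PBS: Ifit3 0.18 with the cerebellar index, Eif2ak2 -0.0042 without the filter, and, without Control 2 and PAP-1 1, Isg15 -0.37, Oasl2 -0.34, Xaf1 -0.14, Eif2ak2 -0.38 and Parp14 -0.46. Why these turned was not tested, beyond the fact that the last 5 leave out PAP-1 1.

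Leaving out 1 library at a time moved the log2 fold changes in ShK-223 against PBS between -0.95 and 1.70 for Ifit3, -0.42 and 2.79 for Isg15, -0.37 and 2.44 for Oasl2, -0.21 and 0.92 for Eif2ak2, -0.36 and 1.11 for Parp14, and -0.27 and 3.55 for Cxcl10, each lowest without ShK-223 1. In PAP-1 against PBS the ranges were -1.15 to 0.87 for Ifit3, -0.37 to 1.84 for Isg15, -0.34 to 1.65 for Oasl2, -0.14 to 0.69 for Xaf1, -0.37 to 0.52 for Eif2ak2 and -0.46 to 0.53 for Parp14, each lowest without PAP-1 1 and highest without PBS 3. Stat2 ran from -0.78 to 0.27 in ShK-223 against Control and from -0.88 to 0.0075 in PAP-1 against Control, highest without Control 2. Of 288 values of single genes under the alternatives, 32 had the other sign, 14 newly passed the threshold and 6 no longer passed it. No paired analysis was possible because the replicate numbers follow sample order and pair no mice. With 3 mice per group and 1 high mouse in each of 3 groups, group differences in these genes have wide errors, and 1 library per mouse does not separate technical from animal spread.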
